A study of Rattus norvegicus with 8 samples.

Results

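The probe sets described here report the nuclear genes of the mitochondrial respiratory chain in whole testes of adult Sprague-Dawley rats. They were chosen by symbol: a probe set belonged if its only gene symbol began with Nduf, Sdh followed by a to d, Uqcr, Cox followed by a digit, or Atp5, and if its deposited signal reached 50 on at least 2 arrays. Of 31042 probe sets that were not array controls, 115 for 99 genes met the symbol rule and 107 for 97 genes also reached the signal, while 19808 probe sets of the whole array did so. Of the 8 probe sets left out, those of Cox7a1 and Cox8b were the only ones of their gene. The 97 genes comprise 34 grouped with complex I, 4 with complex II, 7 with complex III, 16 with complex IV and 16 with complex V. Nearly all of these are subunits, but Atp5if1, the inhibitor of the ATP synthase, was counted with complex V and Cox7a2l with complex IV. The same prefixes also took in 19 assembly factors, which help to build the complexes and are not subunits, and 1 pseudogene, Cox6c-ps1.

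Total RNA of each testis sample was hybridised to 1 oligonucleotide array (8 arrays in all). Adjudin, a small molecule that disrupts the adhesion of germ cells to Sertoli cells, had been given once by gavage at 50 mg/kg body weight, and testes were taken 8 h later (n = 2) or 4 d later (n = 3). The controls were untreated rats (n = 3), and no vehicle group is named. The labels do not say that each array came from a different animal, and the p-values therefore reflect the scatter among arrays, some of which could be technical. In RNA of a whole organ, fewer cells of a type and less RNA per cell cannot be told apart.

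The respiratory chain passes electrons from NADH through complex I, or from succinate through complex II, to complex III, cytochrome c and complex IV, which reduces oxygen. Complexes I, III and IV pump protons, and complex V, the ATP synthase, uses the proton gradient to make ATP. Several small subunits of complex IV, the cytochrome c oxidase, exist as paired isoforms from different genes: one form is made in most tissues, and the other is restricted to muscle, lung or, for Cox6b2, Cox7b2 and Cox8c, mainly to male germ cells. Late spermatids pack their mitochondria into the sheath of the sperm midpiece.

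The promoters of 4 complex IV genes are shown because these genes went in opposite directions at 4 d with the hybridisation run as a block: the widely expressed Cox7b and Cox8a were higher and the germ cell isoforms Cox7b2 and Cox6b2 lower. After quantile normalization neither germ cell isoform passed and Cox7b2 changed sign. Each sequence is the 250 bases before the annotated gene start in RefSeq (build GRCr8), written 5′ to 3′ on the strand of the gene. Capitals mark matches to 5 motifs searched on both strands, none of which contains another.
Cox7b: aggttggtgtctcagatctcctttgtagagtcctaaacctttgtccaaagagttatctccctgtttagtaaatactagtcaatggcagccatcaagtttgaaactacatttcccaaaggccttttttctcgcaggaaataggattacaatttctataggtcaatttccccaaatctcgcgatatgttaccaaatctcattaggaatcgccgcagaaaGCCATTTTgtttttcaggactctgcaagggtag
Cox8a: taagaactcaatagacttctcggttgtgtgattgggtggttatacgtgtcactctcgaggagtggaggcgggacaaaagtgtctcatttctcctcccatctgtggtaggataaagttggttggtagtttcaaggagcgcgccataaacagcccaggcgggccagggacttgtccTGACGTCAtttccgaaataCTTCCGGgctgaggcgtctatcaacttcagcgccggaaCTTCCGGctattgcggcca
Cox7b2: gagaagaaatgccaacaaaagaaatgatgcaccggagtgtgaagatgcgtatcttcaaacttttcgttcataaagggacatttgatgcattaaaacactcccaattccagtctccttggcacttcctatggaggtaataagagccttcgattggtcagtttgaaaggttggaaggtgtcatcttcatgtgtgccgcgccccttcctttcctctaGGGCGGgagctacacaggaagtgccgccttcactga
Cox6b2: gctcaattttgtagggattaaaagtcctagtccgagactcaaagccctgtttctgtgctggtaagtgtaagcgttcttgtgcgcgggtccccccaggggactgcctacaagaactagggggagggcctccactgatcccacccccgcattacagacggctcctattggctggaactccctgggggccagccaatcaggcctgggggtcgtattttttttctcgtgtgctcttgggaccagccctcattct
The windows are chrX:75148786-75149035 on the plus strand for Cox7b, chr1:213833624-213833873 on the minus strand for Cox8a, chr14:37046831-37047080 on the plus strand for Cox7b2 and chr1:78122621-78122870 on the plus strand for Cox6b2. The Cox8a window held the palindromic cyclic AMP response element TGACGTCA 76 to 69 bases before the start. It also held CCGGAAG, a binding motif of ETS factors such as GABPA, on the opposite strand at 57 to 51 and at 19 to 13 bases before the start. The Cox7b window held the YY1 motif AANATGGC on the opposite strand 33 to 26 bases before the start. The Cox7b2 window held 1 GC box, GGGCGG, 36 to 31 bases before the start. The Cox6b2 window held none of the 5 motifs, which says only that these letters are not in this window. The windows of Cox6b1 and Ndufa4, which were higher with the block, held none of them either.

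Over the 88 member genes with a window in the RefSeq table, CCGGAAG was found in 27 (30.7%), against 9.52% of the 19005 windows of all protein-coding genes. The NRF1 motif of 10 bases was found in 15 member windows (17.0%), against 5.45%, and AANATGGC in 11 (12.5%), against 4.27%. The GC box was about as common in members (40.9%) as in all windows (40.3%), and TGACGTCA was found in 2 member windows (2.27%, against 2.03%). By call at 4 d with the block, CCGGAAG was in 2 of 10 higher, 3 of 8 lower and 22 of 70 uncalled genes. The NRF1 motif was in 1, 2 and 12 of these, and AANATGGC in 1, 1 and 9. The 4 windows shown were picked and do not stand for all called genes. NRF1, GABPA and YY1 are known regulators of respiratory chain genes. Only 62 of the 88 windows end exactly at the outermost 5′ end of the gene in RefSeq, and a match is a description, not a bound site.

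At 4 d most respiratory chain genes had no change past the threshold, and 3 of the 5 that passed belong to complex IV. Of the 107 probe sets, 4 were called higher (3.74%) and 1 lower (0.935%) at an adjusted p below 0.05 in limma, against a background of 6.13% higher and 3.71% lower over all 19808 probe sets tested. The members called higher were Cox7b, Cox8a and Ndufa4 of complex IV and the assembly factor Cox14, and the member called lower was Ndufa5 of complex I. The median log2 change of the members was 0.003, beside 0.036 for all probe sets tested. The groups did not overlap for 14 members that were higher at 4 d (13.1%) and for 9 that were lower (8.41%). Over all probe sets tested these shares were 17.4% and 11.8%. In the deposited scaling the members' shares were somewhat below the background in both directions, and this difference was not tested. A p that misses the threshold does not show that a gene did not change.

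The arrays had been hybridised in 3 runs, and the level of most of these genes moved with the run. Run 1 held the first array of each group, run 2 the second control and the second array at 4 d, and run 3 the third control, the second array at 8 h and the third at 4 d. In the controls, 72 of the 107 members (67.3%) had their highest signal on the run 3 array, against 30.6% of all probe sets tested. At 8 h the share was 78.5% against 39.0%, and at 4 d it was 72.0% against 33.7%. The median member stood 0.12 to 0.153 above its own mean log2 signal on the run 3 arrays and -0.119 to -0.049 from it on the other 5 arrays. The assembly factors among the members did not share this, with medians of -0.096 to 0.01 on the run 3 arrays. Complexes II and IV shared it only in part, with medians of -0.025 and 0.021 on the run 3 array at 8 h. At an equal trimmed mean, the run 3 arrays had lower median signals (54.2 to 61, against 68.8 to 71.9). The summed signal of all probe sets tested was also highest on the run 3 array of each group. Whether other probe sets as bright as the members moved alike was not tested.

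**Figure D1:**
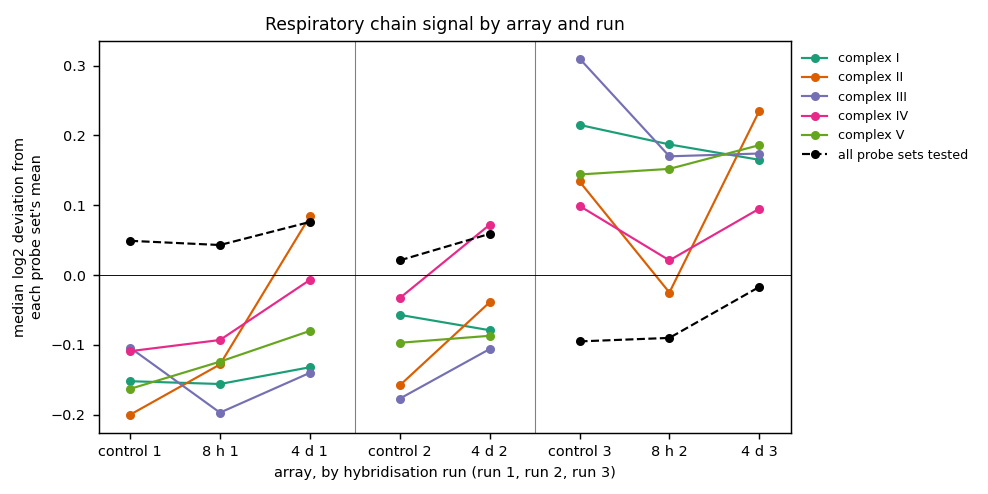
Median log2 deviation of the probe sets of each complex from their own mean over the 8 arrays (vertical axis), for each array in order of hybridisation run (horizontal axis), with all probe sets tested as a dashed line. Complexes I, III and V stood highest on the 3 arrays of run 3 (0.144 to 0.31), where the median over all probe sets tested was -0.095 to -0.017.

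With the run as a block, 11 members were called higher at 4 d (10.3%) and 8 lower (7.48%), and all 5 calls made without a block were among them. The background in that fit was 13.3% higher and 9.17% lower. Complex IV had 5 genes higher and 3 lower of 16, complex I had 3 higher and 4 lower of 34, complex II had 2 higher of 4, and the assembly factors had 1 in each direction of 19. Complexes III and V had 0 calls in limma in the deposited scaling, with or without the block, and 0 of their probe sets had an unadjusted p below 0.05 without it.

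**Figure D2:**
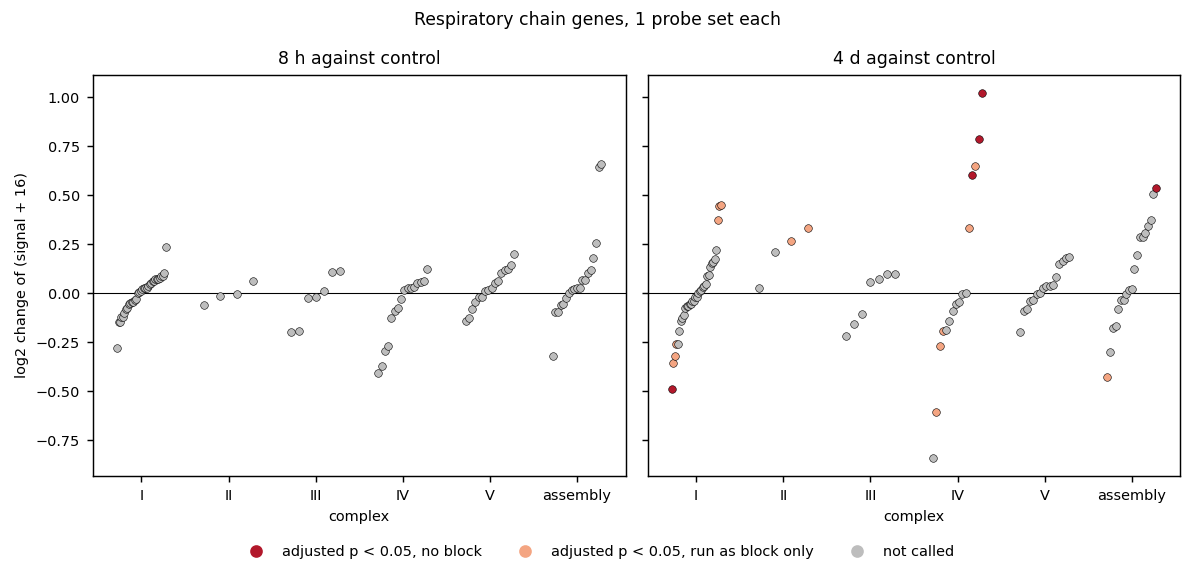
Log2 change of (signal + 16) from control (vertical axis) of each respiratory chain gene, 1 probe set a gene, by complex (horizontal axis, genes in order of their change), at 8 h (left) and 4 d (right). Dark points passed the threshold without a block and light orange points only with the run as a block: at 4 d the calls lie in complexes I, II and IV and among the assembly factors, and at 8 h no gene passed.

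The calls depended on the scaling of the arrays. With quantile normalization 7 members were called higher (6.54%) and 3 lower (2.80%) without a block, against 5.75% and 4.97% of all probe sets tested. With the block the counts were 22 (20.6%) and 3 (2.80%), against 11.8% and 10.8%. With the medians of the arrays made equal, 2 were higher (1.87%) and 3 lower (2.80%) without a block, against 3.93% and 5.01%, and with the block 6 (5.61%) and 16 (15%), against 8.76% and 15%. The members' share of higher calls thus stood above the background only after quantile normalization. Of all member calls without a block, 80.0% were higher in the deposited scaling, 70% after quantile normalization and 40.0% with equal medians, where the shares over all calls on the array were 62.3%, 53.6% and 44.0%. With the block the members' shares were 57.9%, 88.0% and 27.3%, beside 59.2%, 52.2% and 36.9% over the array. Making the medians equal moved the median change of all probe sets tested to -0.105, so a small change of a member in either direction holds only relative to the scaling. Of the calls made with the block, 6 of 11 higher and 3 of 8 lower passed in all 3 scalings. These were Cox7b, Cox8a, Ndufa4, Cox6b1, Ndufa1 and Cox14 among the higher and Ndufa5, Ndufa4l2 and Ndufaf1 among the lower.

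Complex IV held the largest changes. Cox7b, a small subunit found in most tissues, had signals of 290.9, 357.7 and 309.4 in the controls, 266.3 and 316.5 at 8 h, and 593.7, 565.2 and 866.7 at 4 d. All 3 arrays at 4 d lay above every other array. The change at 4 d was 2.03-fold on the scale of signal + 16 (log2 1.02, SE 0.18, adjusted p = 0.00727), with log2 changes of 0.99, 0.64 and 1.44 within the 3 runs. Cox8a, the ubiquitous form of the smallest subunit, had signals of 935.0, 1074.2 and 992.6 in the controls, 943.3 and 948.1 at 8 h, and 1649.1, 1629.6 and 1933.9 at 4 d. Here too the arrays at 4 d did not overlap the others, and the change was 1.72-fold (log2 0.78, SE 0.12, adjusted p = 0.0037). The rises of Cox7b and Cox8a passed in 22 of 23 alternative fits and were lost without run 1 (adjusted p = 0.124 and 0.134), which leaves 5 arrays.

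Ndufa4, first assigned to complex I and now known as a subunit of complex IV, had signals of 829.8, 848.6 and 851.3 in the controls, 819.5 and 899.9 at 8 h, and 1357.8, 1221.1 and 1294.8 at 4 d. The controls and the arrays at 8 h lay close together, and the rise was 1.52-fold (log2 0.60, SE 0.11, adjusted p = 0.00852). It was lost without the first array at 4 d (adjusted p = 0.0529), without run 1 (0.239), without run 2 (0.0822) and with equal medians (0.0942). Cox6b1, a subunit at the contact of the oxidase dimer, had signals of 571.1, 619.3 and 851.7 in the controls, 635.1 and 768.4 at 8 h, and 897.7, 962.0 and 1383.4 at 4 d. The run 3 array was the highest in each group, and the 4 d arrays lay above the controls. The log2 change of 0.65 (SE 0.20) passed only with the run as a block (adjusted p = 0.00118, against 0.0757 without it). Cox6a1, the widely expressed form of subunit 6a, went from 1745.1, 1861.2 and 2065.1 in the controls to 2322.1, 2289.2 and 2523.1 at 4 d, with 1859.2 and 2265.4 at 8 h. Its log2 change of 0.33 (SE 0.12) also passed only with the block (adjusted p = 0.00927, against 0.142). With the medians made equal it did not pass with the block (adjusted p = 0.135).

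The 5 isoforms of complex IV that are restricted to few tissues and reached the signal minimum had negative log2 changes at 4 d in the deposited scaling. Cox7a1 and Cox8b, which fell below the minimum, had a higher mean at 4 d than in the controls. Of the isoforms kept, Cox6a2 reached 50 on no array at 4 d. The shared sign was thus in part set by the rule. Cox6b2, the testis form of subunit 6b, had signals of 6277.3, 5996.5 and 6085.8 in the controls, 5841.9 and 6894.9 at 8 h, and 5246.2, 4956.7 and 5038.6 at 4 d. The 4 d arrays lay below all others, and the log2 change of -0.27 (SE 0.11) passed with the block (adjusted p = 0.0198) but not without it (0.183). After quantile normalization it was -0.09 and did not pass with the block (adjusted p = 0.409). With equal medians it was -0.41 and passed with the block (adjusted p = 0.00464). Cox7b2, the testis form of subunit 7b, had signals of 7943.9, 7929.3 and 11115.7 in the controls, 8022.2 and 10713.6 at 8 h, and 7215.5, 7266.7 and 8915.3 at 4 d. The groups overlapped, because the run 3 array was high in each, and the log2 change of -0.19 (SE 0.18) passed with the block (adjusted p = 0.0338) but was 0.04 after quantile normalization. With equal medians it was -0.335 and passed with the block (adjusted p = 0.0089). Ndufa4l2, a paralogue of Ndufa4 known as a target of hypoxia-inducible factor, had signals of 261.7, 274.9 and 232.1 in the controls, 239.2 and 239.5 at 8 h, and 123.8, 225.2 and 152.1 at 4 d. Its log2 change of -0.61 (SE 0.20) passed with the block (adjusted p = 0.0162) but not without it (0.0962).

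**Figure D3:**
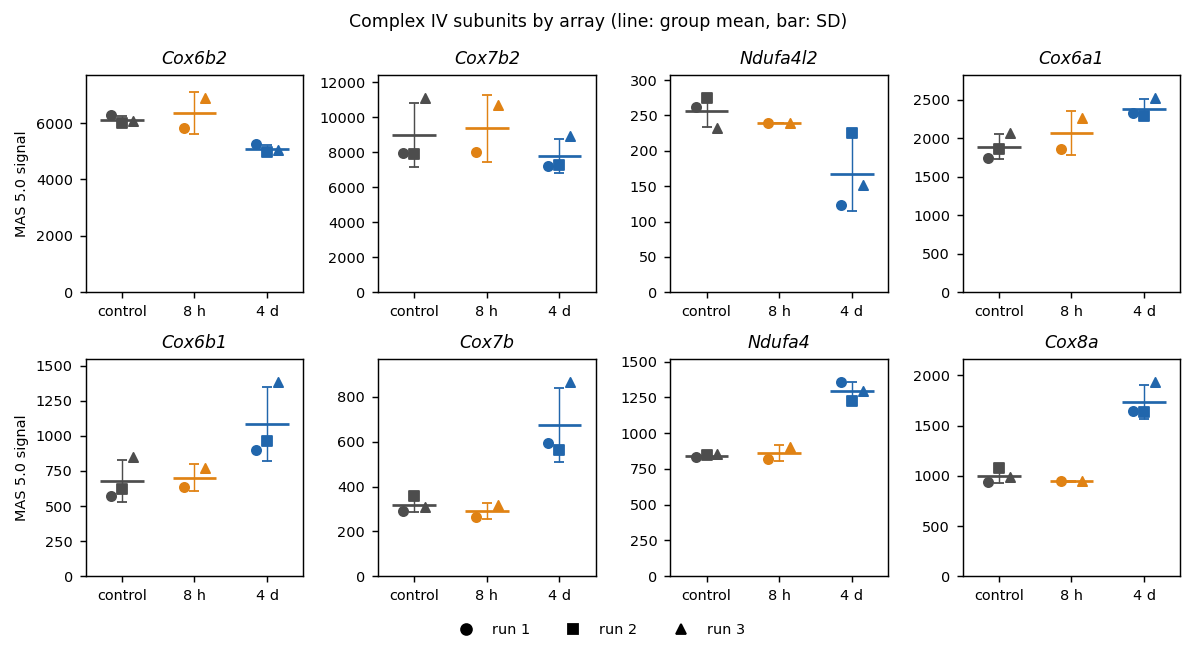
Deposited MAS 5.0 signal (vertical axes, linear from 0) of 8 complex IV genes on each array, by group (horizontal axis); marker shapes give the hybridisation run, lines the group mean and bars the SD. Cox6b1, Cox7b, Ndufa4, Cox8a and Cox6a1 lie above the controls on all 3 arrays at 4 d, and Cox6b2 and Ndufa4l2 below them.

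The remaining isoforms were near the signal minimum. Cox4i2, the lung form of subunit 4, was between 39.6 and 72.0 on the 8 arrays, just inside the rule, with a log2 change of -0.14 (SE 0.25) at 4 d that turned to 0.055 without run 2. Cox6a2, the heart and skeletal muscle form of subunit 6a, was between 45.4 and 55.7 in the controls and at 29.9, 46.3 and 1.6 at 4 d, and did not pass (log2 -0.84, SE 0.47, adjusted p = 0.342). Cox7a1, the muscle form of subunit 7a, stood just outside the rule, with signals of 44.6, 20.0 and 7.9 in the controls, 39.7 and 15.9 at 8 h, and 33.0, 52.6 and 45.1 at 4 d. Cox8b, the muscle form of subunit 8, also fell outside it, with 8.3, 5.5 and 4.8 in the controls, 6.9 and 2.4 at 8 h, and 36.5, 35.5 and 19.6 at 4 d. Both had a higher mean at 4 d than in the controls, below the level at which genes were tested. Cox4i1, the ubiquitous form of subunit 4, had signals of 7280.5, 7633.2 and 9182.5 in the controls and 6888.8, 7215.7 and 8474.1 at 4 d. Its log2 change of -0.09 (SE 0.15) was 0.154 after quantile normalization. Cox7a2 and Cox8c were not analysed here.

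Each isoform was also set against its counterpart within an array, on the scale of log2(signal + 16). A factor on a whole array nearly cancels in this difference where both signals are far above 16, and less so for dim genes. The log2 difference of Cox6b2 minus Cox6b1 was 3.42, 3.24 and 2.81 in the controls and 2.53, 2.35 and 1.85 at 4 d, a mean change of -0.92 with -0.90, -0.90 and -0.96 in the 3 runs. The levels of such a difference depend on the probes, and only its change between arrays can be read. The difference of Cox7b2 minus Cox7b fell by 1.22 in the mean, with -1.13, -0.76 and -1.76 in the runs. The difference of Ndufa4l2 minus Ndufa4 changed by -1.21, with -1.69, -0.79 and -1.16 in the runs. The control and 4 d arrays did not overlap for these 3 pairs. The differences reuse the signals given above, so they are not added measurements. For the Cox7b pair the log2 changes were -0.19 for Cox7b2 and 1.02 for Cox7b. For the Cox6b pair they were -0.27 for Cox6b2 and 0.65 for Cox6b1. The larger part of both falls was thus the rise of the counterpart. Ndufa4l2 and Ndufa4 changed by -0.61 and 0.60. With 3 arrays against 3, an exact two-sided permutation test cannot give less than p = 0.1, so these differences carry no call. For Cox4i2 minus Cox4i1 the groups overlapped, and for Cox6a2 no ratio is given because its signals at 4 d were too dim. At 8 h the changes within run 1 and run 3 were -0.25 and 0.33 for the Cox6b pair and 0.14 and -0.08 for the Cox7b pair, opposite in sign in both cases. For Ndufa4l2 minus Ndufa4 they were -0.10 and -0.04.

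In complex I, which takes electrons from NADH, the calls went in both directions. Ndufa5, an accessory subunit of the peripheral arm, had signals of 1667.5, 1811.9 and 1919.2 in the controls, 1746.2 and 2045.6 at 8 h, and 1370.2, 1277.2 and 1189.4 at 4 d. The 4 d arrays lay below all others, and the log2 change of -0.49 (SE 0.12) passed without a block (adjusted p = 0.0323). It was lost in 10 of 23 alternative fits, among them 6 of the 8 that left out 1 array. Another 3 accessory subunits were lower only with the block, namely Ndufa6 (log2 -0.36, adjusted p = 0.00576), Ndufa13 (-0.32, 0.0056) and Ndufa12 (-0.26, 0.00962). None of these 3 passed with the block after quantile normalization, and all 3 did with the medians made equal.

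Ndufa1, a small subunit of the membrane arm needed for its assembly, had signals of 1550.8, 1593.1 and 2090.2 in the controls, 1398.1 and 2003.7 at 8 h, and 2173.1, 2053.7 and 2980.2 at 4 d. Its run 3 arrays were the highest of each group, and its log2 change of 0.45 (SE 0.20) passed only with the block (adjusted p = 0.00181, against 0.2). Ndufb11, another membrane arm subunit, had signals of 1161.3, 1029.6 and 1150.1 in the controls, 792.9 and 1048.4 at 8 h, and 1669.3, 1291.0 and 1625.1 at 4 d. Its log2 change of 0.44 (SE 0.15) passed with the block too (adjusted p = 0.0129). Ndufb3 was the other complex I gene called higher with the block (log2 0.37, adjusted p = 0.029). With the medians made equal, neither Ndufb11 nor Ndufb3 passed with the block (adjusted p = 0.0731 and 0.179). The other 27 genes of complex I lay between log2 changes of -0.26 and 0.22 and did not pass.

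Complex II, the succinate dehydrogenase, is made of 4 nuclear-encoded subunits, and its largest log2 changes at 4 d were positive. Sdhc, a membrane anchor, went from 791.1, 919.2 and 878.6 in the controls and 869.0 and 934.5 at 8 h to 1158.1, 991.9 and 1121.8 at 4 d (log2 0.33, SE 0.12). Sdha, the subunit that binds FAD and succinate, had a log2 change of 0.27 (SE 0.16). Both passed only with the block (adjusted p = 0.0399 and 0.0435), and neither did so with the medians made equal. The iron-sulfur subunit Sdhb had a log2 change of 0.21 and did not pass. The probe sets of the anchor Sdhd differed in sign (0.03 and -0.11), neither passed, and the first turned to -0.11 with the medians made equal.

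Complex III, which hands electrons to cytochrome c, showed no call in the deposited scaling. With the run as a block, 2 of its 8 probe sets were called higher after quantile normalization and 2 lower with equal medians. Its smallest p belonged to Uqcr11, a small subunit, with signals of 2567.5, 2699.4 and 3558.5 in the controls, 2315.7 and 2772.8 at 8 h, and 2382.9, 2419.7 and 2700.0 at 4 d. The groups overlapped, and the log2 change was -0.22 (SE 0.15, adjusted p = 0.44, or 0.0687 with the block). The 7 genes lay between -0.22 and 0.10. The 16 genes of complex V lay between -0.20 and 0.18. Of its 18 probe sets, 2 were called higher after quantile normalization without a block and 5 with it, while 1 was lower with equal medians and the block. The smallest p there belonged to Atp5f1d, the delta subunit of its F1 part, with signals of 1221.1, 1148.8 and 1196.1 in the controls, 1074.8 and 1234.1 at 8 h, and 1385.7, 1259.5 and 1404.6 at 4 d. Its 4 d arrays lay above the rest by a small margin, but the log2 change of 0.18 (SE 0.12) did not pass (adjusted p = 0.407, or 0.164 with the block).

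Of the 19 assembly factors in the set, Cox14, which couples the synthesis of the mitochondrially encoded subunit Cox1 to its assembly, was called higher. Its signals were 565.3, 437.4 and 554.8 in the controls, 633.8 and 542.2 at 8 h, and 714.4, 734.2 and 816.6 at 4 d. The 4 d arrays lay above all others, with a log2 change of 0.53 (SE 0.14, adjusted p = 0.0438). The call was lost in 16 of 23 alternative fits, including all 8 that left out 1 array. Ndufaf1, an assembly factor of complex I, was lower only with the block (log2 -0.43, adjusted p = 0.0475).

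Markers of several cell types changed over the same 4 d. Over all probe sets tested, 6.13% were called higher and 3.71% lower, and 13.3% and 9.17% with the block. The summed signal of 12 elongating spermatid markers was 133611 to 200513 in the controls and 92837 to 131928 at 4 d, and 5 of them fell (12 with the block). The sum of 6 round spermatid markers was 23713 to 27922 in the controls and 16404 to 17804 at 4 d, and 3 fell (6 with the block). The sum of 10 Sertoli cell markers was 11584 to 13663 in the controls and 18300 to 24151 at 4 d, with 2 called higher and 1 lower (4 and 2 with the block). The log2 changes of these 10 ran from -1.501 to 5.188 with a median of 0.334, 7 positive and 3 negative. Their sum can therefore be carried by few genes. For 10 leukocyte markers the sum was 4742 to 5168 in the controls and 7124 to 9311 at 4 d, with 8 called higher and 1 lower. For 2 red blood cell markers it was 1510 to 2485 and 3199 to 5610, with both higher. Of 8 Leydig cell markers 1 was higher (4 higher and 1 lower with the block), as was 1 of 6 peritubular markers (2 higher and 1 lower with the block). Of 9 spermatocyte, 4 spermatogonium and 4 endothelial markers, 0 were called without a block in limma, with 1, 1 and 2 at an unadjusted p below 0.05 and 0, 1 and 1 called with the block. Only markers with a probe set of 1 symbol that met the signal minimum were counted. These were, among others, 6 of 11 round spermatid, 4 of 9 spermatogonium, 10 of 14 Sertoli and 2 of 4 red blood cell markers listed. Of the markers counted only 1, a leukocyte one, stayed below a signal of 50 in every control, which the minimum in part ensures. The part of these cell types in the changes of the respiratory chain genes was not tested.

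Genes that supply or drain the respiratory chain included larger log2 changes than the chain itself. Of 13 measured genes for electron carriers and ATP export, 1 was called higher and 1 lower without a block (7.69% each). With the block the counts were 4 and 2 (30.8% and 15.4%). The background was 6.13% higher and 3.71% lower, and 13.3% and 9.17% with the block. Slc25a4, the ADP/ATP carrier typical of heart and muscle, had signals of 879.2, 929.6 and 1030.7 in the controls, 1016.6 and 1212.1 at 8 h, and 1957.1, 1788.3 and 2418.3 at 4 d. The 4 d arrays stood clear of the rest (log2 1.10, SE 0.14, adjusted p = 0.00164). Slc25a31, the ADP/ATP carrier of male germ cells, had a log2 change of -0.12 (SE 0.13), and Slc25a5, a widely expressed one, of 0.18 (SE 0.17). Gpd2, the mitochondrial glycerol 3-phosphate dehydrogenase that feeds electrons to ubiquinone, had signals of 3547.5, 3589.6 and 4271.4 in the controls, 3444.0 and 4592.2 at 8 h, and 1390.6, 1482.4 and 1710.1 at 4 d. It fell to 0.404 of the control level (log2 -1.31, SE 0.15, adjusted p = 0.000713). Cyc1, cytochrome c1 of complex III, had a log2 change of 0.09 (SE 0.13) that was -0.055 with the medians made equal. Cycs and Cyct were not analysed here.

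Of 15 measured genes of the pyruvate dehydrogenase complex and the tricarboxylic acid cycle, 2 were called higher (13.3%) and 0 lower without a block. With the block the counts were 4 (26.7%) and 0. The background was 6.13% higher and 3.71% lower, and 13.3% and 9.17% with the block. Pdha1, the somatic form of the E1 alpha subunit of pyruvate dehydrogenase, went from 129.6, 128.9 and 124.1 in the controls and 127.9 and 136.2 at 8 h to 253.5, 187.1 and 267.1 at 4 d. The control and 8 h arrays were nearly level and all 4 d arrays were higher (log2 0.80, SE 0.17, adjusted p = 0.0172). Pdha2, its germ cell counterpart, had signals of 1422.9, 1502.1 and 1420.9 in the controls and 1447.5, 1354.2 and 1339.1 at 4 d (log2 -0.07, SE 0.11). Idh3a, the catalytic subunit of NAD-dependent isocitrate dehydrogenase, rose from 216.5, 213.4 and 221.1 to 506.8, 447.9 and 422.4, with 257.1 and 245.4 at 8 h (log2 1.02, SE 0.13, adjusted p = 0.00147).

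**Figure D4:**
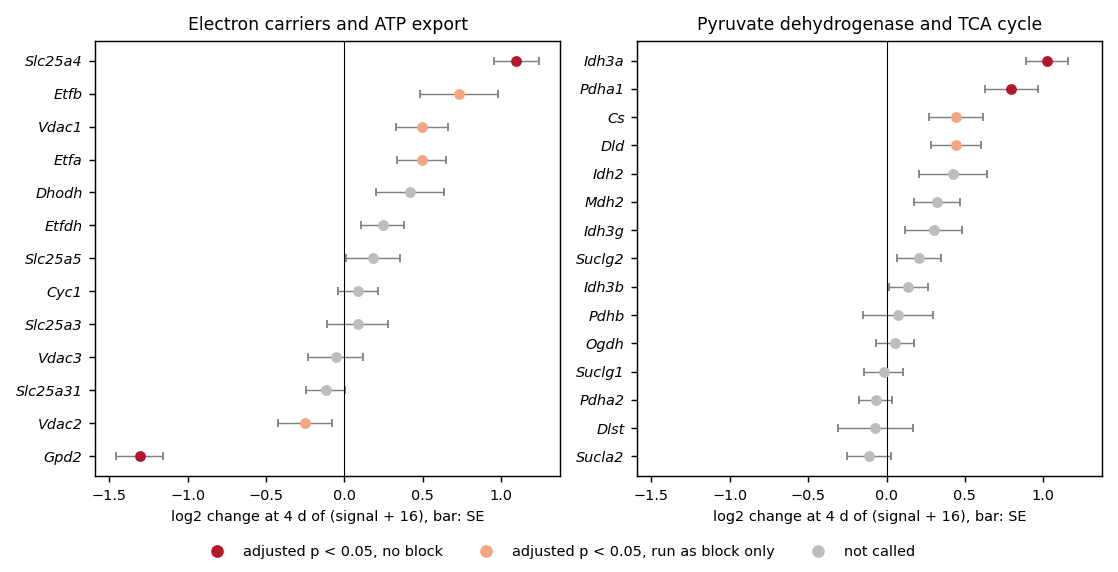
Log2 change of (signal + 16) at 4 d against control (horizontal axes; points are estimates and bars their SE) for 13 genes of electron carriers and ATP export (left) and 15 genes of pyruvate dehydrogenase and the tricarboxylic acid cycle (right). Slc25a4, Idh3a and Pdha1 lie to the right and Gpd2 to the left in dark red, the 4 genes that passed without a block.

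Of 21 further assembly factors without the member prefixes, 0 were called higher and 1 lower (4.76%), with or without the block. The one that fell was Coa5, a complex IV assembly factor, with signals of 1851.1, 1617.8 and 2081.2 in the controls, 1865.7 and 2148.0 at 8 h, and 541.7, 602.8 and 859.1 at 4 d (log2 -1.47, SE 0.18, adjusted p = 0.00105). Of 14 genes of mitochondrial biogenesis, 1 was called higher and 1 lower without a block (7.14% each). With the block the counts were 3 and 1 (21.4% and 7.14%). The background for both lists was 6.13% higher and 3.71% lower, and 13.3% and 9.17% with the block. Ssbp1, the single-strand binding protein of mitochondrial DNA, rose (log2 1.10, SE 0.18, adjusted p = 0.00475), and Ppargc1b, a coactivator of mitochondrial genes, fell (log2 -0.57, SE 0.15, adjusted p = 0.0411). The median change of these 4 lists was 0.179, 0.208, 0.036 and 0.269 in the order given, beside 0.036 for all probe sets tested.

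At 8 h no respiratory chain gene had changed past the threshold against the same 3 controls. In limma 0 of the 107 probe sets were called in either direction, with or without the block, and 3 had an unadjusted p below 0.05. The background was 0.0656% called higher and 0.0% called lower (0.268% and 0.0101% with the block), so few calls were made anywhere on the array. The groups did not overlap for 3 members that were higher and 3 that were lower (2.80% each), against 7.3% and 7.61% of all probe sets tested. The 3 with an unadjusted p below 0.05 were assembly factors, named here after their values were seen. The share of all probe sets tested with such a p was not counted. Cox11, a copper-delivery factor, had signals of 47.0, 61.1 and 55.7 in the controls, 94.7 and 93.0 at 8 h, and 62.4, 43.4 and 53.8 at 4 d. Its other tested probe set went the other way at 8 h, with 67.0, 45.5 and 45.1 in the controls and 72.3 and 29.1 at 8 h (log2 -0.10). Sdhaf3 had a log2 difference of 0.66 and Sdhaf1 of -0.32 from control, and both assist the assembly of complex II.

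Among the probe sets that stood for their gene, the smallest p of each complex at 8 h belonged to Ndufb11 (log2 -0.28), Sdhc (0.06), Uqcrc1, a core subunit of complex III (-0.19), Cox5a, a matrix-side subunit of complex IV (-0.41), and Atp5if1, the inhibitor of the ATP synthase (0.14). All had an adjusted p of 1. The dimmer probe set of Sdhd had a smaller p than Sdhc, with a log2 of -0.14 and both 8 h arrays below every control. The summed signal of elongating spermatid markers at 8 h was 138859 to 180291, within the range of the controls. The 4 pathway lists had 0 calls at 8 h, when few calls were made anywhere on the array.

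Between 8 h and 4 d, 5 members were called higher at 4 d (4.67%) and 1 lower (0.935%), against a background of 3.58% and 2.47%. With the block the counts were 9 and 5, against 8.55% and 7.08%. The arrays at 4 d are those of the comparison with control, so the calls are not a separate set of measurements. Cox7b was higher by a log2 of 1.15 (SE 0.20, adjusted p = 0.0115), Cox8a by 0.86 (adjusted p = 0.00679) and Ndufa4 by 0.58 (adjusted p = 0.0261). Ndufb11 was higher by 0.73 (adjusted p = 0.0346), and Ndufa5 was lower with a log2 of -0.56 (adjusted p = 0.0408). Sdhaf1 had signals of 461.7, 437.1 and 458.1 in the controls, 354.6 and 362.0 at 8 h, and 519.3, 568.6 and 576.3 at 4 d, with a log2 difference of 0.61 between the treated groups (adjusted p = 0.0281). Its arrays at 8 h lay below the controls and those at 4 d above them. With the arrays at 8 h left out in turn, 0 members remained past the threshold in this comparison.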

How the data were processed

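Total RNA from 8 rat testis samples was hybridised to Affymetrix rat expression arrays, which hold 31099 probe sets. Per the labels, the deposited values are signal intensity computed by MAS 5.0, on a linear scale. Each array has a 2% trimmed mean of 250.1. The design text also names GeneSpring 7.2, per the submitters' notes. Groups came from the sample titles, since the description field reads normal testis throughout. Between 51.7% and 59.0% of probe sets reached a signal of 50 on an array, arrays of a group correlated at r = 0.954 to 0.978, and the number of arrays limited the precision.

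From the deposited intensity, log2(signal + 16) was taken, which understates changes of dim genes. The 19808 probe sets with a signal of 50 on at least 2 arrays were fitted with limma 3.58.1 in R 4.3.3 (lmFit, eBayes with a trend, all 8 arrays, no block), and p-values were adjusted over all of them with the Benjamini-Hochberg method at 0.05. The script was tested on simulated data. The probe table gave 1 symbol for 20826 probe sets, several for 436 and none for 9780, and only the first were named. Of the 115 probe sets of the symbol rule, 112 matched RefSeq by gene identifier and no symbol differed (0). Where a gene had several probe sets, the brightest on average (log2 scale) stood for it. In 5 of 9 genes with several probe sets these differed in sign, none in opposite calls. Promoters are from RefSeq (GRCr8).

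The runs were read from shared hybridisation days in the arrays' settings files, with fluidics protocol version 4 in run 2 and version 5 in the others. Deviations from group means correlated at 0.353 to 0.506 between arrays of a run in different groups. Between arrays of different runs and groups they correlated at -0.475 to 0.246. With 2 arrays at 8 h the deviations of one mirror the other (r = -1), so the values with these arrays are not independent. Arrays of a run were treated as paired, and the fit with the run as a block is given beside the fit without it. Control and 4 d replicate numbers follow the run, while 8 h replicate 2 was in run 3.

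The members and lists were chosen with earlier results of these data known. Named were up to 4 genes of each complex or assembly group with the largest change past the threshold at 4 d, or else the smallest p. At 8 h and between treated groups these were the smallest p of each complex and the genes called. Tissue isoforms and their counterparts were named too, as were fixed carriers and up to 3 called genes of each pathway list. Other genes called only with the block were named after their values were seen. Alternatives were other pseudocounts (4 and 64), signal minimums, scalings, blocks and left-out arrays.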

Additional observations from a re-analysis of the deposited data

Results flagged for a closer look

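For 6 genes the change from control differed between 4 d and 8 h, tested as the difference between the treated groups in limma over all probe sets. The difference (log2, 4 d minus 8 h) was 1.148 for Cox7b, 0.862 for Cox8a and 0.578 for Ndufa4, all of complex IV. It was 0.726 for Ndufb11 and -0.56 for Ndufa5 of complex I and 0.607 for the assembly factor Sdhaf1. Both arrays at 8 h of Sdhaf1 and 1 of Ndufb11 lay below every control, and neither gene passed the threshold against control at either time without a block. The 8 h group has 2 arrays, and without either of them none (0) of the 6 differences passed.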

How the results depend on the processing

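At 4 d against control, the fit gave 4 members higher and 1 lower, and the share of all probe sets tested that was called in the same fit stands in brackets. Quantile normalization gave 7 and 3 (5.75% and 4.97%), equal medians 2 and 3 (3.93% and 5.01%), and eBayes without a trend 0 lower (2.77%). The run as a replicate block gave 11 and 8 (13.3% and 9.17%), that block with quantile normalization 22 and 3 (11.8% and 10.8%), and with equal medians 16 lower (15%). A replicate block by the number in the titles gave 8 and 3 (10.7% and 6.95%). Without run 2 the counts were 2 and 0 (1.76% and 0.848%). Without run 1 (added after seeing the data, as were run 3 and the block with other scalings) they were 0 and 0 (0.813% and 0.283%), and without run 3 0 were lower (4.39%). With each array left out in turn, 2 to 4 were higher and 0 to 1 lower.

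Between 4 d and 8 h, 5 were higher and 1 lower. Equal medians (2.07% and 2.52%), eBayes without a trend (3.08% and 1.46%), the arrays of both groups alone (3.37% and 2.06%) and the fit without run 2 (1.04% and 0.666%) each gave 2 and 0. Without run 1 the counts were 0 and 0 (0.0353% and 0.0%), and without run 3 (2.13%) or without a signal minimum (1.15%) 0 were lower. The run as a replicate block gave 9 and 5 (8.55% and 7.08%), with quantile normalization 18 and 2 (7.67% and 7.82%), and with equal medians 8 lower (10.2%). The block by title number gave 2 lower (5.32%). Left-out arrays gave 0 to 5 higher and 0 to 1 lower. At 8 h both counts were 0 in each alternative, left-out arrays included (0 to 0).

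Some small changes at 4 d reversed. Cox4i1 was 0.154 after quantile normalization, with or without the block, and -0.18 to 0.008 with 1 array left out. Cox4i2 was 0.055 without run 2 and -0.311 to 0.004 with 1 array left out. Cox7b2 was 0.041 after quantile normalization, with or without the block. Cyc1 was -0.055 with equal medians, with or without the block, and -0.012 to 0.177 with 1 array left out. The cause was not tested, except that fewer arrays were left in some fits. Other pseudocounts changed none (0) of the calls. Where a left-out array left 1 array at 8 h, that array was assumed to vary like the other groups.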

Other observations

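The 3 member genes that lie on chromosome X in the RefSeq table, Cox7b, Ndufa1 and Ndufb11, were all called higher at 4 d with the run as a block, and 1 of them without it. With the medians made equal, Ndufb11 did not pass with the block in limma (adjusted p = 0.0731). Of the 85 member genes with a window on other chromosomes, 7 were higher and 8 lower with the block. Over all genes tested, 27.7% of 278 genes on chromosome X were called higher with the block, against 14.8% of 9131 genes elsewhere. The shares called lower with the block were 11.2% and 12.1%. Without the block, 16.9% of genes on chromosome X and 7.14% elsewhere were called higher. The grouping by chromosome was made after the values were seen and was not tested. The germ cell counterpart of Cox7b, Cox7b2, lies on chromosome 14.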
